A study of Rattus norvegicus with 9 samples.

Results

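Mitochondrial ribosomal proteins were taken as the protein-coding rows of the gene count table whose symbol is Mrpl or Mrps followed by a digit. The rule found 75 genes of 22324 in the table, 45 named Mrpl and 30 named Mrps, and 17949 of all rows were protein-coding. Of the 75, 74 passed the filter on low counts, among 14956 genes that did. Mrps21l did not, with 1 read over the 9 libraries. Symbols were read with their case, which left 3 rows written in lower case (mrpl9, mrpl11 and mrpl24) outside the rule, and these are described apart.

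Poly(A) RNA was sequenced from primary rat nucleus pulposus cells, which fill the soft centre of the intervertebral disc, in 3 groups of 3 libraries. NC is read here as untreated control cells, on the strength of its title and of the series' design text. SEN cells are doxorubicin-induced senescent cells, doxorubicin being a DNA-damaging drug, and BNPMT cells were senescent cells given an intervention of that name. The labels give every library the genotype WT and the same medium, high-glucose DMEM with 10% serum, and also the same doxorubicin protocol (200 nM for 24 h, then 6 days in fresh medium), NC included. The name BNPMT is not expanded, its dose and timing are not given, and no label says that libraries of a group came from separate cultures, so the spread behind every p-value is that between libraries and could be technical only.

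Mitochondria keep their own ribosome, which translates the few proteins encoded by mitochondrial DNA, all of them parts of the oxidative phosphorylation machinery. Its ribosomal RNAs are transcribed inside the organelle, whereas every protein of its large (Mrpl) and small (Mrps) subunit is encoded in the nucleus, made in the cytosol and imported. Some of these proteins descend from bacterial ribosomal proteins and others were added later in evolution. Nuclear genes of this kind are often described with binding sites of the activators NRF1, GABP (an ETS factor) and YY1 at their starts.

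Total counts per library ranged from 34514440 to 41873790 (NC), 31206834 to 38391586 (SEN) and 35094282 to 41971877 (BNPMT). Levels are given as CPM, the share of a library's reads scaled to a round total, with the library sizes corrected by edgeR's TMM method (TMM CPM), which is also the scale of the log2 changes. Levels compared between genes are given per length, as FPKM. A gene is said to have risen or fallen when its adjusted p in edgeR's quasi-likelihood test was below 0.05. Cdkn1a, the p53 target that encodes the cell-cycle inhibitor p21, stood at 121 TMM CPM in NC, 1324 in SEN and 243 in BNPMT. Lmnb1, a nuclear lamina gene that falls in senescent cells, stood at 56.4, 15.9 and 43.9. Of 10 nucleus pulposus and notochord markers, Col2a1 and Acan were high (4165 and 535 TMM CPM in NC), and Tbxt, a notochord transcription factor, was near 0 (0.0849). Of the keratins of notochordal cells in that list, Krt18 and Krt19 were at 0.0147 and 0.215 and Krt8 at 3.79. Within their groups, SEN 1 and BNPMT 1 differed most, by a trend of their counts with gene length (Spearman correlations of -0.42 and 0.51 across genes). The mitochondrial ribosomal protein genes were short, with a median length of 1151 bases (464 to 3648) against 3329 over all tested genes, so the counts over the members and over each gene list are given also without these 2 libraries.

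Transcripts of the mitochondrial ribosomal proteins took 0.218%, 0.222% and 0.228% of all counts in the NC libraries, 0.131%, 0.115% and 0.117% in SEN, and 0.282%, 0.339% and 0.332% in BNPMT. The groups did not overlap: SEN was lowest and BNPMT highest. This share depends on total counts alone. In bulk RNA, less RNA per cell and fewer cells that make it cannot be told apart.

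In SEN, 53 of the 74 tested genes were lower than in NC, 4 were higher (Mrps6, Mrpl33, Mrpl57 and Mrpl45) and 17 did not pass the test. The median log2 change was -0.64, with the middle of the list between -0.95 and -0.20, against a median of -0.01 over all tested genes. The background was 38.5% of all tested genes called lower and 37.6% called higher. In all 53 and all 4 of these genes the SEN libraries did not overlap the NC libraries. Such separation was not counted over all tested genes, so it has no background here and is not a trait of the members. Per library, the median difference of the members from the NC mean was -0.53, -0.71 and -0.66 in SEN 1, 2 and 3, with 60, 67 and 67 of the 74 below the NC mean.

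With total counts as the scale, 69 members were lower and 1 (Mrps6) higher in SEN, beside 56.9% and 24.5% of all tested genes. On that scale the median over all tested genes was itself -0.46 and that of the members -1.09. With each library's trend with gene length taken out, 63 were lower and 5 higher (background 38.4% and 40.6%). Without SEN 1 and BNPMT 1, 62 were lower and 5 higher (39.8% and 38.5%). The 53 members lower in the reported fit were all lower with total counts and without the 2 libraries, and 52 were lower with the length trend taken out.

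**Figure D1:**
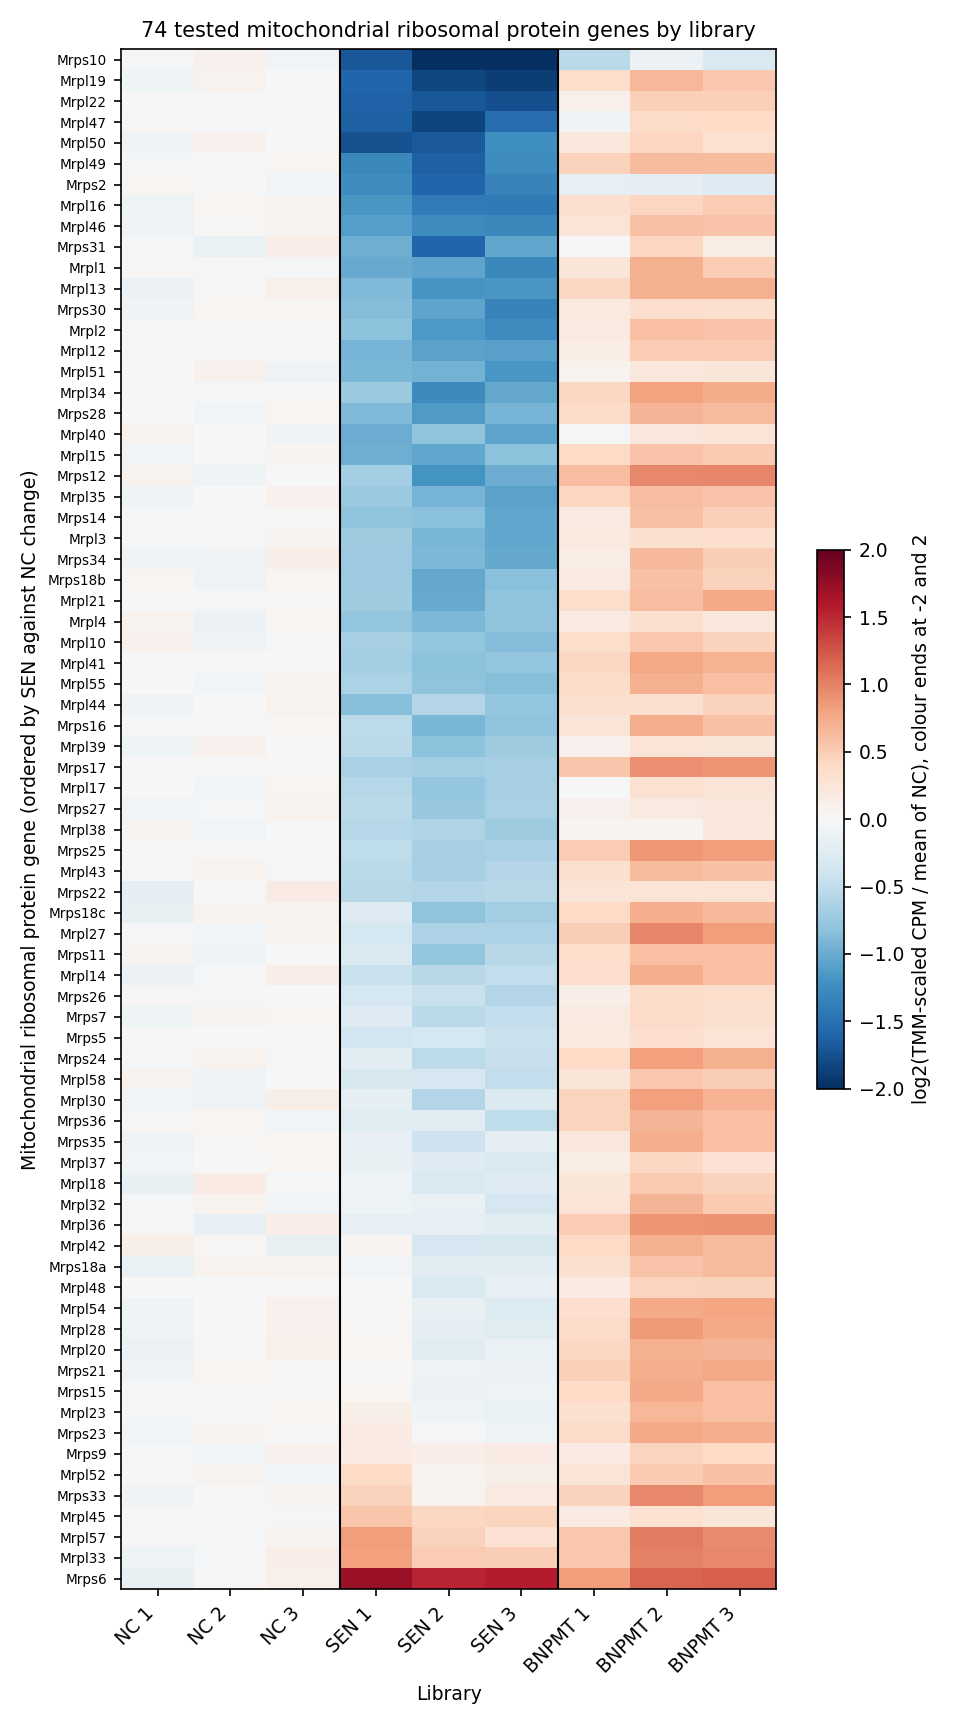
Each row is one of the 74 tested mitochondrial ribosomal protein genes and each column a library; colour gives the log2 ratio of TMM-scaled CPM to the NC mean, with blue lower and red higher, and the colour scale ends at -2 and 2. Rows are ordered by the SEN against NC change, from Mrps10 (-2.04) to Mrps6 (1.61); most of the SEN columns are blue and most of the BNPMT columns are pale red.

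The members were then set beside genes of their own length. For each member, the tested protein-coding genes within 10% of its length (110 to 1451 genes, 8217 in all) gave a median change. In SEN against NC these medians lay at 0.01 in the middle (-0.14 to 0.67), and the members lay 0.66 below them (median difference -0.66 ± 0.03), with 68 of 74 below. The SD is over the SEN libraries, each set against the NC mean, and leaves out the spread of NC. Of the 8217 length-matched genes, 3056 were higher and 3266 lower. Matching on level too (within 2-fold of the member's mean level) gave a median difference of -0.43. These differences are descriptions with no test.

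**Figure D2:**
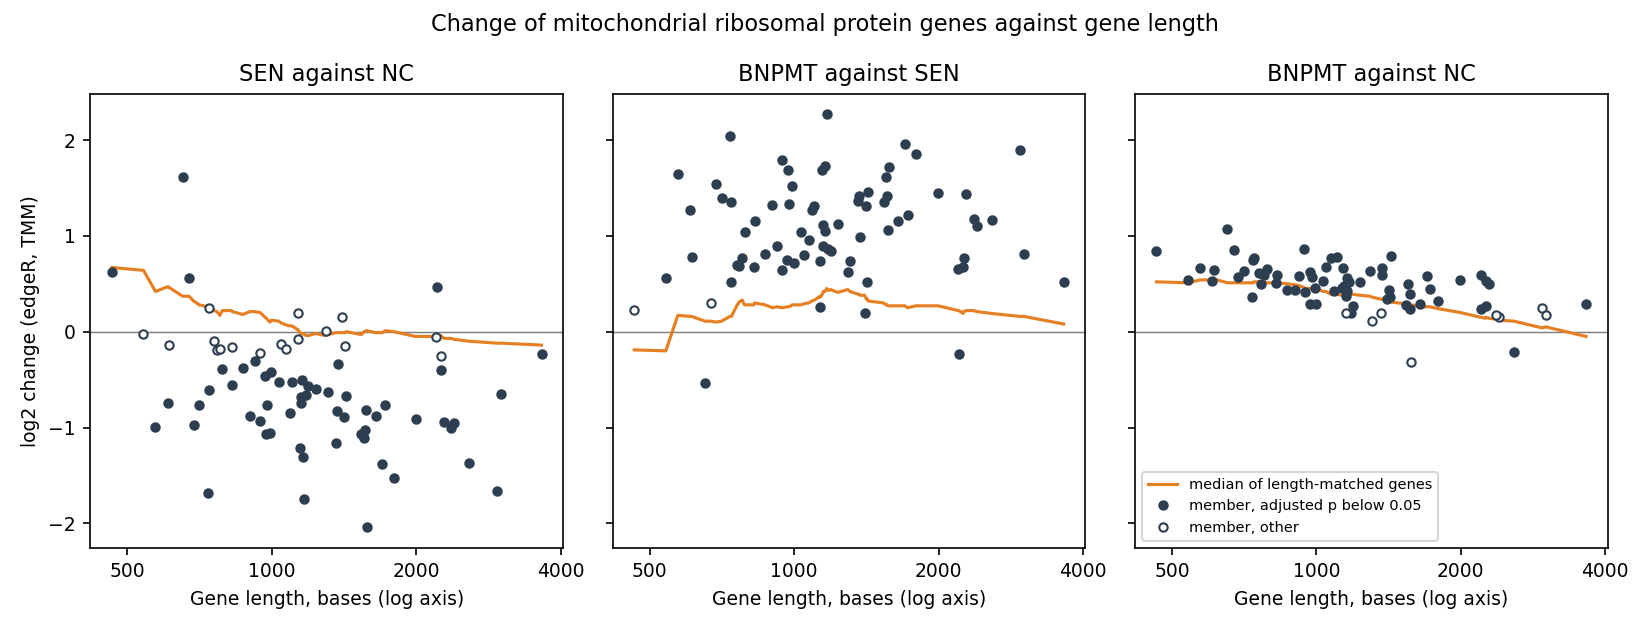
Points are the 74 tested members (filled where the adjusted p was below 0.05), with gene length in bases on a log axis and the log2 change on the vertical axis in each of the 3 comparisons; the orange line is the median change of length-matched genes. In SEN against NC 68 members lie below the line, in BNPMT against SEN 70 lie above it, and in BNPMT against NC the points lie along the line (median difference 0.09).

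The starts of 6 members are shown because they are the parts of these genes that the activators named above would read: 3 that fell steeply in SEN (Mrps10, Mrpl22 and Mrpl49), Mrps18b, whose window holds several motifs, and 2 that rose (Mrps6 and Mrpl33). Each runs from 100 bases before to 30 bases after the gene's start in RefSeq's annotation of the rat build GRCr8, on the gene's strand. This is another build than the mRatBN7.2 of the deposited files. Capitals mark matches on either strand to the ETS motif CCGGAAG, the YY1 motif AAGATGGC, the NRF1 core GCGCATGC or the E-box CACGTG.
Mrps10: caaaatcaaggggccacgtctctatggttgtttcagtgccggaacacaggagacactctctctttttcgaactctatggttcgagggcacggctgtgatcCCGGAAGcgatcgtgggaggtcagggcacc
Mrpl22: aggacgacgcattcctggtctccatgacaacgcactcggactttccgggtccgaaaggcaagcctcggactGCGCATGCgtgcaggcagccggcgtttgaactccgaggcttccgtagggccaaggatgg
Mrpl49: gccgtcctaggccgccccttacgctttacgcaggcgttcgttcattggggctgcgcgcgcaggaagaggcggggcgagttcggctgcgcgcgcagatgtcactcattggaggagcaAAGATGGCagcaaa
Mrps18b: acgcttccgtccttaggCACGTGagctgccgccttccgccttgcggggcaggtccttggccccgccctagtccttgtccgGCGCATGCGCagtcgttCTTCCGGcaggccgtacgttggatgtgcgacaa
Mrps6: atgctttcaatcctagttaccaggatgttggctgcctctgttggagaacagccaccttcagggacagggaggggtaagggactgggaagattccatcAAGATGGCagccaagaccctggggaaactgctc
Mrpl33: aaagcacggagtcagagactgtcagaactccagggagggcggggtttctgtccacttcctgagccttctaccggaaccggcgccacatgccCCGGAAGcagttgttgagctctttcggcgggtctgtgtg
In GRCr8 these windows lie at chr9:21122424-21122553 on the minus strand (Mrps10), chr10:42845810-42845939 on the plus strand (Mrpl22), chr1:212779298-212779427 on the minus strand (Mrpl49), chr20:2842906-2843035 on the plus strand (Mrps18b), chr11:44778567-44778696 on the plus strand (Mrps6) and chr6:30553958-30554087 on the minus strand (Mrpl33).

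Windows of 300 bases (250 before to 50 after the start) were found for 60 members by gene ID, with 1 window per gene, the first listed. The ETS motif was in 20 of them (33.3%), against 16.8% of the windows of 11348 other tested protein-coding genes and 9.22% of all 27457. The YY1 motif was found in 15 (25%, against 5.19% and 3.44%) and the NRF1 core in 5 (8.33%, against 4.77% and 2.66%). The full NRF1 motif, whose letters overlap the core, was found in 9 (15%, against 9.48% and 4.71%). The SP1 motif GGGGCGGGG was found in 8 (13.3%, against 19.8% and 10.4%), the CREB motif TGACGTCA in 1 (1.67%, against 3.10% and 1.91%) and the E-box in 6 (10.0%, against 9.16% and 6.65%). Both strands were read. The median GC content of the member windows was 55.8%, against 60.7% for the other tested genes, and no test was made of these shares.

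Members with and without a motif had falls in SEN, where 38.5% of all tested genes were called lower and 37.6% higher. In SEN against NC the 20 with the ETS motif had 11 lower and 2 higher and a median of -0.36, and the 40 without it had 29 lower and 2 higher and a median of -0.68. Those with the YY1 motif had 9 of 15 lower (median -0.42) and those without it 31 of 45 (median -0.56). The NRF1 core went the other way, with 4 of 5 lower (median -0.74) and 36 of 55 without it (median -0.52). For the full NRF1 motif 6 of 9 were lower (median -0.46) and 34 of 51 without it (median -0.61). For SP1 7 of 8 were lower (median -0.41) and 33 of 52 without it (median -0.66). None of these splits was tested. Genes for the activators named above moved too. Yy1 rose in SEN from 83.0 to 187 TMM CPM and stood at 80.9 in BNPMT, and Nrf1 fell from 26.6 to 20.1 and stood at 23.6. Gabpb1, which encodes a GABP subunit, rose from 25.1 to 53.2 and stood at 19.7. Gabpa, which encodes another, rose from 53.1 to 70.9 and stood at 43.6. With total counts Gabpa did not pass the test in SEN (-0.04, adjusted p = 0.729), while Yy1 and Gabpb1 changed by 0.72 and 0.63. Whether any of them acts on these genes in these cells was not tested.

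The 6 steepest falls in SEN were in Mrps10, Mrpl19, Mrpl22, Mrpl47, Mrpl50 and Mrpl49. Mrps10, a small subunit protein with a bacterial counterpart, stood at 9.69, 10.6 and 9.53 TMM CPM in NC, 3.07, 1.59 and 2.496 in SEN, compared with 6.80, 9.11 and 8.03 in BNPMT. Its log2 change was -2.04 ± 0.18 in SEN against NC (SE, adjusted p = 1.81e-07). All SEN libraries were far below both other groups. The BNPMT libraries lay just under NC without overlap, which missed the threshold (-0.32 ± 0.15, adjusted p = 0.095). After the length trend was removed that difference passed it (-0.58, adjusted p = 0.00171). Mrps10 was also among the least abundant members per length, at 6.92 ± 0.370 FPKM in NC (SD, n = 3).

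Mrpl19, a large subunit protein, stood at 17.3, 19.2 and 18.3 TMM CPM in NC, 6.08, 5.18 and 4.96 in SEN, against 23.3, 28.8 and 26.6 in BNPMT. It fell by 1.75 ± 0.11 on the log2 scale in SEN (adjusted p = 3.91e-09) and showed the largest rise of all members in BNPMT against SEN, 2.27 ± 0.11 (adjusted p = 2.06e-10). Mrpl22, a protein of the wall of the tunnel through which the new chain leaves, stood at 20.3, 20.5 and 19.99 in NC, 6.64, 6.29 and 5.98 in SEN, against 21.7, 28.1 and 28.2 in BNPMT. Each of these 3 groups stood apart from the others in both genes, with BNPMT above NC. After the length trend was removed, the difference from NC did not pass the test in either gene (0.16, adjusted p = 0.0621, in Mrpl19 and -0.13, adjusted p = 0.114, in Mrpl22).

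Mrpl47, the counterpart of bacterial L29 at the tunnel exit, had 11.4, 10.8 and 11.3 TMM CPM in NC and 3.60, 3.11 and 3.87 in SEN (-1.66 ± 0.14, adjusted p = 1.25e-07). Mrpl50 and Mrpl49 have no bacterial counterpart. Mrpl50 had 14.1, 15.7 and 14.7 in NC and 4.45, 4.66 and 6.33 in SEN (-1.53 ± 0.12, adjusted p = 6.65e-08). Mrpl49 had 29.8, 30.4 and 31.5 in NC and 12.5, 9.88 and 12.8 in SEN (-1.38 ± 0.09, adjusted p = 1.00e-08). In each of these 3 genes the highest SEN library was below the lowest NC library by more than the spread within either group.

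Mrps6, a small subunit protein, showed the largest rise. It stood at 16.2, 18.3 and 19.4 TMM CPM in NC, 59.6, 51.4 and 53.1 in SEN, compared with 31.9, 40.4 and 41.0 in BNPMT. The groups did not overlap, and the change was 1.61 ± 0.10 in SEN against NC (adjusted p = 6.18e-09) and -0.54 ± 0.10 in BNPMT against SEN (adjusted p = 0.000197). In GRCr8 the whole of Slc5a3 (2447 bases), the myo-inositol transporter gene, lies within Mrps6 on the same strand. Slc5a3 stood at 0.955 to 1.16 TMM CPM in NC, 106, 149 and 171 in SEN and 0.761 to 1.58 in BNPMT (log2 change in SEN 7.04 ± 0.22, adjusted p = 2.98e-12). How reads of the shared stretch were counted is not stated, and the part of Slc5a3 reads in the Mrps6 values was not tested.

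Mrpl33, the shortest member (464 bases) and one of the most abundant per length, stood at 38.6, 40.4 and 45.1 TMM CPM in NC, 73.1, 58.9 and 58.1 in SEN, against 59.8, 82.9 and 80.2 in BNPMT. Its rise in SEN was 0.62 ± 0.12 (adjusted p = 0.000353), no larger than the median of length-matched genes (0.67). Mrpl57, also short (672 bases), rose by 0.56 ± 0.15 (adjusted p = 0.00353). Its length-matched median was 0.37. For both, the SEN and BNPMT libraries overlapped, and neither passed the test in BNPMT against SEN (0.23 ± 0.12, adjusted p = 0.0905, and 0.30 ± 0.14, adjusted p = 0.0681).

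Mrpl45, which attaches the ribosome to the inner membrane, stood at 53.0, 52.4 and 51.3 TMM CPM in NC, 76.8, 69.5 and 70.9 in SEN, against 58.8, 64.2 and 61.8 in BNPMT. It rose by 0.47 ± 0.06 in SEN (adjusted p = 6.27e-06), against -0.05 for genes of its length. With total counts the change in SEN was 0.02 (adjusted p = 0.763), and those of Mrpl33 and Mrpl57 were 0.16 (adjusted p = 0.211) and 0.10 (adjusted p = 0.518), so of the 4 rises only that of Mrps6 passed the test on that scale (1.15, adjusted p = 1.14e-07).

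**Figure D3:**
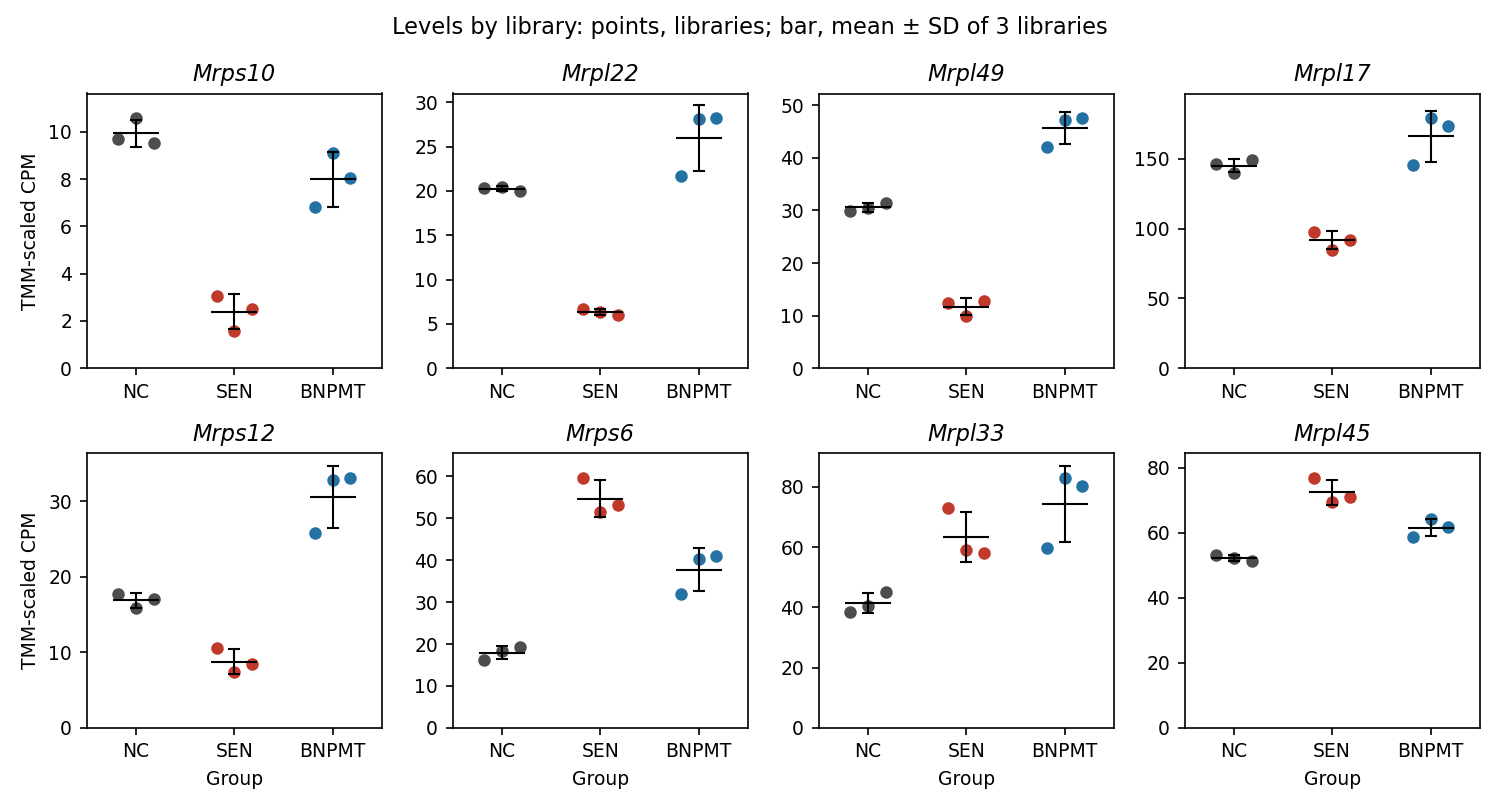
Points are the TMM-scaled CPM of each of the 9 libraries for 8 members, and the bars are the mean ± SD of the 3 libraries of a group; each axis starts at 0. SEN is lowest in Mrps10, Mrpl22, Mrpl49, Mrpl17 and Mrps12, highest in Mrps6 and Mrpl45, and overlaps BNPMT in Mrpl33.

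Members with known tasks were mostly lower in SEN. The stalk, the flexible arm that recruits translation factors, is built of Mrpl10 and Mrpl12. Mrpl12 stood at 46.3, 48.3 and 47.3 TMM CPM in NC and 24.8, 22.6 and 22.2 in SEN (-1.03 ± 0.09, adjusted p = 1.88e-07), and Mrpl10 changed by -0.77 ± 0.08 (adjusted p = 6.33e-07). Mrps12, the protein of the decoding centre, stood at 17.8, 15.8 and 17.0 in NC and 10.5, 7.33 and 8.47 in SEN (-0.93 ± 0.13, adjusted p = 1.65e-05). Of the other small subunit proteins fixed in the list, Mrps5 fell by 0.40 ± 0.07 and Mrps7 by 0.42 ± 0.08.

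The large subunit proteins Mrpl41 and Mrpl44 fell by 0.76 ± 0.09 and 0.74 ± 0.09 in SEN, and Mrpl58, a peptide release enzyme that rescues stalled ribosomes, fell by 0.38 ± 0.09. Mrps30, a large subunit protein in spite of its name, fell by 1.07 ± 0.10. The Mrps18 paralogues, a trio from one ancestral gene, differed in value: Mrps18b changed by -0.85 ± 0.10 (adjusted p = 3.60e-06), Mrps18c by -0.56 ± 0.13 (adjusted p = 0.00151) and Mrps18a by -0.16 ± 0.10 (adjusted p = 0.150). The difference between the paralogues was not tested. Mrps36, which is a part of the oxoglutarate dehydrogenase complex and not of the ribosome, fell by 0.31 ± 0.09 (adjusted p = 0.00767).

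Genes of both subunits were mostly lower in SEN, where 33 of 47 large subunit genes were lower and 3 higher (median -0.74), and 19 of 26 small subunit genes were lower and 1 higher (median -0.57). The background was 38.5% of all tested genes lower and 37.6% higher. Without SEN 1 and BNPMT 1, 41 of 47 and 20 of 26 were lower (background 39.8%). After the length trend was removed these counts were 42 and 20 (background 38.4%). The subunits were not compared by a test. Among the 44 genes with a bacterial counterpart 32 were lower (median -0.70), and among the 29 without one 20 were (median -0.61), or 37 and 24 without the 2 libraries. By length, 14 of the 25 shortest members were lower (median -0.38), 19 of the middle 24 (median -0.61) and 20 of the 25 longest (median -0.89). The counts lay closer together in other fits. They were 20, 20 and 22 without SEN 1 and BNPMT 1 (medians -0.42, -0.66 and -0.94), and 21, 22 and 20 once the length trend was removed (medians -0.58, -0.65 and -0.84). The Spearman correlation of length and change was -0.34 over the 74 members and -0.04 over the other tested protein-coding genes, given as a description.

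Levels differed more between members in SEN than in the other groups. Per length, the members had a median of 22.4 FPKM in NC (4.15 to 135), 10.6 in SEN (0.958 to 109) and 33.0 in BNPMT (5.09 to 182). FPKM is scaled by total counts, on which the median change over all tested genes was -0.46 in SEN against NC. Over the 74 genes, log2 FPKM had an SD of 0.88 in NC, against 1.25 in SEN and 0.98 in BNPMT. This SD was not computed for other genes, so the wider spread in SEN is not shown to be a trait of the members. In NC 72 of them were above the median of the other tested protein-coding genes (5.85 FPKM), in SEN 66 (median 3.93) and in BNPMT 73 (median 5.75).

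The most abundant members over all libraries were Mrpl33, Mrpl17 and Mrpl23. Mrpl33 had 97.9 ± 8.20, 109 ± 13.9 and 182 ± 28.97 FPKM in NC, SEN and BNPMT (SD, n = 3), and Mrpl17 had 135 ± 4.63, 62.3 ± 4.09 and 159.8 ± 15.6. Mrpl23 had 72.4 ± 1.76, 52.0 ± 4.64 and 108.8 ± 12.2. On the TMM scale Mrpl23 did not pass the test in SEN against NC (-0.02 ± 0.09, adjusted p = 0.818), with overlapping libraries. The order of these 3 differed between groups, with Mrpl17 first in NC and Mrpl33 first in SEN, and in BNPMT Mrpl33 and Mrpl17 were within their spread of each other. The least abundant tested members were Mrpl47 (4.15 ± 0.112, 0.958 ± 0.104 and 5.09 ± 0.840 FPKM), Mrps10 and Mrpl40 (5.75 ± 0.255, 2.18 ± 0.208 and 6.61 ± 0.666).

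In BNPMT against SEN, 70 of the 74 members were higher, 2 were lower (Mrps6 and Mrpl45), and Mrpl33 and Mrpl57 did not pass the test. The median log2 change was 1.08, from -0.54 to 2.27, against 0.02 over all tested genes, of which 40.7% were called higher and 39.9% lower. Of the 70, 69 had BNPMT libraries that did not overlap the SEN libraries, which again was not counted over all tested genes. The comparison shares the SEN libraries with SEN against NC, so the 2 sets of values are not independent.

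With total counts 73 members were higher in BNPMT than in SEN and, in edgeR, none was lower, also at an unadjusted p below 0.05 (background 57.3% higher and 25.8% lower, median of all tested genes 0.52). With the length trend taken out 69 were higher and 2 lower (39.9% and 41.6%), with a median of 0.81 in place of 1.08. Without SEN 1 and BNPMT 1, 72 were higher and 2 lower (40.7% and 40.2%). The members lay 0.76 ± 0.04 above length-matched genes (median difference, SD over the BNPMT libraries alone), with 70 of 74 above. Matched on level too, the difference was 0.51. Of the 8217 genes of all windows together, which were longer than the members, 3943 were higher and 2757 lower.

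The largest rises from SEN to BNPMT were in Mrpl19 (2.27), Mrpl22 (2.04 ± 0.11, adjusted p = 7.28e-10), Mrpl49 (1.96 ± 0.09, adjusted p = 2.19e-10), Mrpl47 (1.90 ± 0.14), Mrpl50 (1.85 ± 0.12) and Mrps12 (1.79 ± 0.13, adjusted p = 1.55e-08). Mrpl49 stood at 42.1, 47.2 and 47.5 TMM CPM in BNPMT and Mrps12 at 25.8, 32.8 and 33.1. Both were above every NC library as well. The stalk genes Mrpl12 and Mrpl10 rose by 1.42 ± 0.09 and 1.22 ± 0.08.

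Both falls from SEN to BNPMT were small. Mrpl45 changed by -0.23 ± 0.06 (adjusted p = 0.00242). With total counts it changed by 0.27 (adjusted p = 0.000555), so its direction turned with the scale. Mrps6, at -0.54, changed by -0.04 with total counts (adjusted p = 0.741).

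In BNPMT against NC, 65 members were higher, 1 was lower (Mrps2) and 8 did not pass the test. The median log2 change was 0.50, against 0.00 over all tested genes, of which 26.3% were called higher and 26.5% lower. Genes of the same length moved nearly as far: their medians lay at 0.39 in the middle (-0.05 to 0.55). The members lay 0.09 ± 0.03 above them (SD over the BNPMT libraries alone), with 56 of 74 above and 18 below. Of the 8217 genes of all windows together, 3171 were higher and 1230 lower (median 0.16). They were longer than the members (median 2223 bases against 1151), so these counts are not matched for length.

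Gene length went with the change in this comparison in the members and outside them, with Spearman correlations of -0.58 over the 74 members and -0.50 over the other tested protein-coding genes, given as a description. All 25 of the shortest members rose (median 0.59), as did 21 of the middle 24 (0.50) and 19 of the 25 longest (0.32), or 25, 23 and 23 without SEN 1 and BNPMT 1. With each library's length trend taken out, 28 members were higher and 4 lower and the median was 0.12 (background 23.5% and 22.6%). The 28 were all among the 65 of the reported fit. With total counts 69 were higher and, in edgeR, none lower, also at an unadjusted p below 0.05 (30.2% and 22.5%, median of all tested genes 0.06). Without SEN 1 and BNPMT 1, 71 were higher and 1 lower (29.6% and 30.6%).

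**Figure D4:**
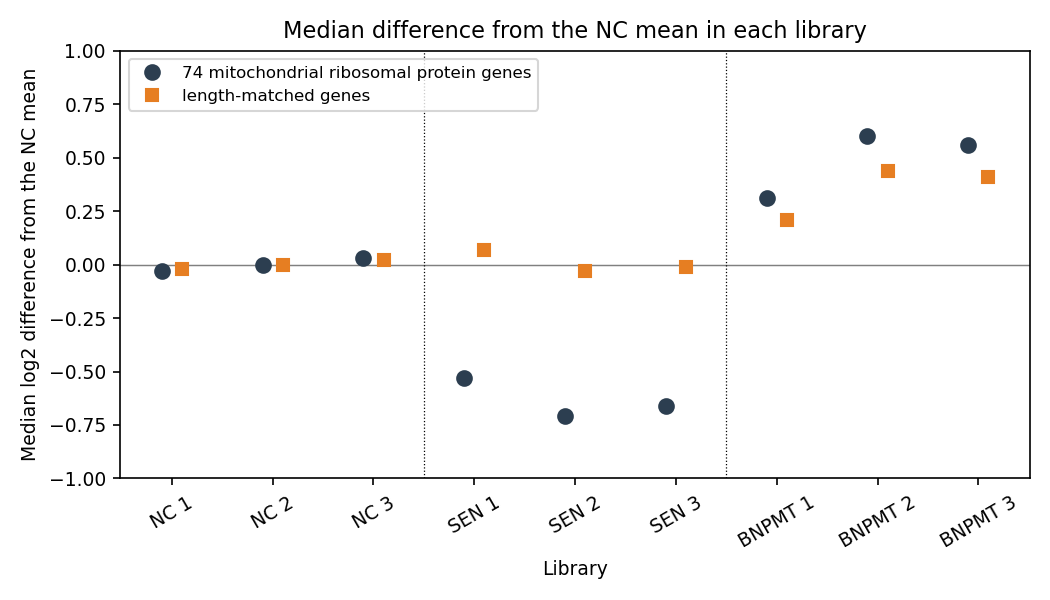
For each library, the dark circle is the median over the 74 members of the log2 difference from the NC mean, and the orange square is the same for length-matched genes (the median over members of the median of their length window). Circles and squares part in the SEN libraries (circles -0.53 to -0.71, squares -0.03 to 0.07) and lie close together in BNPMT (circles 0.31 to 0.60, squares 0.21 to 0.44), where BNPMT 1 is the lowest of its group in both.

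The members above NC in BNPMT were led by Mrps6 (1.07 ± 0.10, adjusted p = 3.66e-06), Mrps12 (0.86 ± 0.12, adjusted p = 6.06e-05), Mrpl57 (0.85 ± 0.14), Mrpl33 (0.84 ± 0.12), Mrps17 (0.79 ± 0.08) and Mrpl27 (0.78 ± 0.11). Mrps17, a small subunit protein with a bacterial counterpart, stood at 29.4, 29.8 and 29.6 TMM CPM in NC, 18.8, 18.3 and 18.6 in SEN, compared with 43.7, 55.5 and 54.5 in BNPMT. These 6 were also higher with the length trend taken out, Mrps17 by 0.49 and Mrps12 by 0.44. BNPMT 1 was the lowest of its group in Mrps17 and in Mrps12.

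Mrps2, a small subunit protein, was the member that fell against NC. It stood at 40.8, 40.0 and 38.4 TMM CPM in NC, 16.8, 13.3 and 15.8 in SEN, against 35.6, 34.6 and 33.1 in BNPMT. It fell by 1.37 ± 0.08 in SEN (adjusted p = 2.91e-09), and in BNPMT it remained below NC (-0.21 ± 0.08, adjusted p = 0.0357; groups not overlapping). With total counts that last difference was -0.16 and did not pass the test, nor did it pass without any 1 of NC 1, NC 2, NC 3, BNPMT 2 or BNPMT 3. Mrpl40 and Mrpl47, both long, did not pass the test in BNPMT against NC (0.15 ± 0.10, adjusted p = 0.215, and 0.25 ± 0.12, adjusted p = 0.103).

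The rule leaves out 5 tested subunit genes with other symbols, Dap3, Ptcd3, Chchd1, Aurkaip1 and Gadd45gip1. All 5 fell in SEN (-0.26 to -1.41, median -0.76) and all 5 rose in BNPMT against SEN (0.41 to 1.35, median 1.13). Over all tested genes 38.5% fell in SEN and 40.7% rose in BNPMT against SEN. Against NC, 3 of the 5 were higher in BNPMT and Ptcd3 was lower (-0.28, adjusted p = 0.00147), beside 26.3% and 26.5%. With the length trend taken out 1 was higher and 1 lower (23.5% and 22.6%). Ptcd3, a small subunit protein with RNA-binding repeats, stood at 41.1, 15.5 and 33.8 TMM CPM in NC, SEN and BNPMT, and Dap3, the small subunit's GTP-binding protein, at 57.8, 46.8 and 62.2. Of the lower-case rows, mrpl11, the rRNA-binding base of the stalk, fell in SEN by 1.02 (adjusted p = 8.13e-07), and mrpl9 and mrpl24 did not pass the test (0.00, adjusted p = 0.970, and -0.13, adjusted p = 0.190). All 3 rose in BNPMT against SEN and in BNPMT against NC.

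The other steps of mitochondrial translation were followed in gene lists. Of 27 assembly factors, which process ribosomal RNA and join the subunits, 21 fell and 3 rose in SEN (median -0.80). Over all tested genes 38.5% fell and 37.6% rose. Ddx28, an RNA helicase of large subunit assembly, stood at 10.0, 1.51 and 9.69 TMM CPM in NC, SEN and BNPMT (SEN against NC -2.74, adjusted p = 4.84e-10). Malsu1, which keeps an immature large subunit from joining the small one, stood at 12.1, 3.27 and 17.5 (-1.89, adjusted p = 3.22e-09). The rises were Mterf3, Mrm2 and C1qbp, by 0.41, 0.51 and 0.41. These 3 did not pass the test with total counts, where 24 of the 27 were lower, beside 56.9% of all tested genes. In BNPMT against SEN 21 rose and 3 fell (median 0.98), beside 40.7% and 39.9% of all tested genes. Against NC, 11 were higher in BNPMT and 2 lower (median 0.25), beside 26.3% and 26.5%. With the length trend taken out these counts were 7 and 3 (23.5% and 22.6%).

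Of 16 translation factors 11 fell and 3 rose in SEN (median -0.58), beside 38.5% and 37.6% of all tested genes. In BNPMT against SEN 11 rose and 3 fell (median 0.86), beside 40.7% and 39.9%. Against NC, 7 were higher in BNPMT and 0 lower (median 0.25), beside 26.3% and 26.5%. With the length trend taken out these counts were 8 and 0 (23.5% and 22.6%). In SEN Mtif3, an initiation factor, fell by 2.05 (adjusted p = 5.74e-09), Taco1, an activator of cytochrome oxidase translation, by 2.57 and Mtfmt, which formylates the initiator tRNA, by 1.56. Mtif2, the other initiation factor, rose by 0.77 (adjusted p = 1.34e-06), as did Mtrf1l, a release factor (0.60), and Oxa1l, the membrane insertase (0.56). With total counts 1 of these 16 was higher in SEN and 13 lower, beside 24.5% and 56.9% of all tested genes.

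Of 17 mitochondrial aminoacyl-tRNA synthetases, the enzymes that load tRNAs with amino acids, 16 fell in SEN (median -0.91), beside 38.5% of all tested genes. Mars2 rose by 0.37, which did not pass the test with total counts. Pars2, for proline, stood at 9.04, 0.469 and 9.91 TMM CPM in NC, SEN and BNPMT (-4.24, adjusted p = 9.99e-10), and Lars2, for leucine, at 18.0, 4.24 and 19.1 (-2.08, adjusted p = 2.02e-10). In BNPMT against SEN 16 rose (median 1.12), beside 40.7% of all tested genes. In BNPMT against NC 5 of the 17 were higher and 1 lower (median 0.09), where 26.3% of all tested genes were called higher and 26.5% lower, so the share of rises was near the background. The synthetase genes were longer than the ribosomal protein genes (median 3598 bases).

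Of 10 tested regulators of nuclear genes for mitochondria, 6 rose and 2 fell in SEN (median 0.40), beside 37.6% and 38.5% of all tested genes. In BNPMT against SEN 2 rose and 6 fell (median -0.93), beside 40.7% and 39.9%. Against NC, 1 was higher in BNPMT and 6 lower (median -0.31), beside 26.3% and 26.5%. With the length trend taken out these counts were 2 and 3 (23.5% and 22.6%). With total counts 4 rose and 3 fell in SEN (median -0.06), beside 24.5% and 56.9% of all tested genes. In BNPMT against SEN 4 then rose and 5 fell (median -0.43), beside 57.3% and 25.8%. Myc stood at 55.7, 274 and 27.0 TMM CPM in NC, SEN and BNPMT (2.30 in SEN, adjusted p = 5.19e-13) and Sp1 at 78.7, 128 and 57.2. Ppargc1a, the coactivator of mitochondrial biogenesis, was near 0 in all groups (0.144 to 0.305).

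Of 7 genes for transcription and copying of mitochondrial DNA, 4 fell and 2 rose in SEN (median -0.43), beside 38.5% and 37.6% of all tested genes. Tefm, the elongation factor of mitochondrial RNA polymerase, fell by 3.48 (adjusted p = 2.17e-09), from 6.10 to 0.542 TMM CPM, and stood at 7.17 in BNPMT. Polrmt, the polymerase itself, fell by 0.47. Twnk, the helicase, rose by 1.41 and Tfb2m, an initiation factor, by 0.70. Tfam, which packs mitochondrial DNA, stood at 29.4, 29.2 and 33.3 and did not pass the test in SEN (-0.01, adjusted p = 0.898). With total counts it was the fifth of these genes to be called lower (-0.47, adjusted p = 7.54e-05), beside 56.9% of all tested genes. Against NC, 2 of the 7 genes were higher in BNPMT and 1 lower (median 0.18), beside 26.3% and 26.5%. With the length trend taken out these counts were 1 and 1 (23.5% and 22.6%).

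Without SEN 1 and BNPMT 1 the falls and rises in SEN were 5 and 0 of the subunit genes with other symbols, 21 and 3 of the assembly factors, 11 and 3 of the translation factors, 15 and 1 of the synthetases, 2 and 6 of the regulators and 4 and 2 of the genes for mitochondrial DNA. Over all tested genes 39.8% then fell and 38.5% rose. In BNPMT against SEN the rises and falls were then 5 and 0, 21 and 3, 12 and 1, 15 and 0, 2 and 7, and 4 and 2, in the same order. There 40.7% of all tested genes rose and 40.2% fell. In BNPMT against NC 5 of the 17 synthetases were then higher and 3 lower, beside 29.6% and 30.6% of all tested genes.

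**Figure D5:**
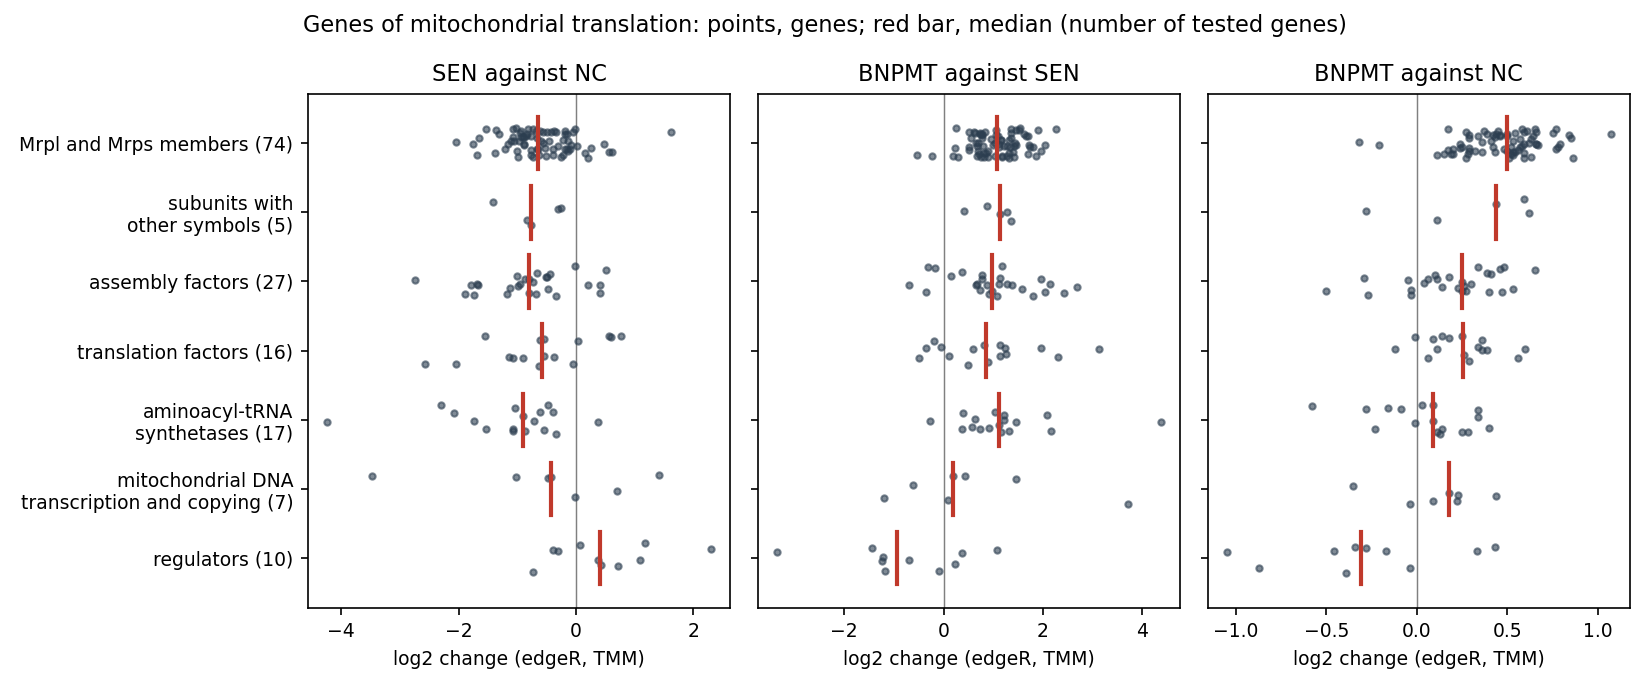
Each point is a tested gene, placed by its log2 change in each comparison, for the 74 members and 6 other lists, with the number of genes in brackets and a red bar at the median; the panels have their own scales. In SEN against NC the medians lie left of 0 for every list but the regulators (0.40), and in BNPMT against SEN they lie right of 0 for every list but the regulators (-0.93).

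In GRCr8 18 of the 60 members with a promoter window lie head to head with another gene that has one. The starts of such pairs are within 1000 bases of each other on opposite strands, and Mrpl46 and Mrps11 are one such pair. Members without a window could not be assessed. For the 16 pairs with a tested partner outside the members, the members had 13 lower and 1 higher in SEN (median -0.60) and the partners 9 lower and 4 higher (median -0.43), beside 38.5% lower and 37.6% higher over all tested genes. Mrpl49 fell while its partner Fau, a cytosolic ribosomal protein gene, rose from 342 to 681 TMM CPM (0.99, adjusted p = 1.09e-06). Mrps18b fell by 0.85 while Ppp1r10, a nuclear phosphatase subunit gene that starts 588 bases away, stood at 55.2 to 59.5 TMM CPM in the NC libraries, at 874 to 919 in SEN (3.97 ± 0.06, adjusted p = 4.53e-15) and at 54.0 to 60.4 in BNPMT.

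Mitd1, the partner of Mrpl30, fell by 1.68 in SEN beside a fall of 0.34 in Mrpl30. Ndufb5, the respiratory complex I partner of Mrpl47, did not pass the test in SEN (0.05, adjusted p = 0.627), where Mrpl47 fell by 1.66. In BNPMT against SEN 15 of the 16 members in such pairs were higher (median 1.13), and of the partners 8 were higher and 4 lower (median 0.29), beside 40.7% and 39.9% over all tested genes. By annotation 16 members also overlap a protein-coding gene. No source used here states whether the counting used strand or how it treated reads from near-identical copies elsewhere in the genome, and reads from overlapping genes may therefore be mixed.

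Markers of other cell types moved with the groups. The summed level of the 2 measured immune markers was 26.6 to 31.3 TMM CPM in SEN and at most 0.766 in NC and 0.629 in BNPMT, nearly all from Cd68, a lysosomal protein gene (28.2 in SEN), with Csf1r at 0.503. The 3 endothelial markers summed to 5.24 to 5.82 in SEN and at most 0.685 elsewhere, nearly all from Pecam1, with Cdh5 at 0.0218. The 5 smooth muscle markers summed to 4063 to 4090 (NC), 1647 to 1881 (SEN) and 2216 to 2495 TMM CPM (BNPMT), the 4 annulus and fibroblast markers to 34320 to 35680, 46200 to 47130 and 14870 to 16850, and the 10 nucleus pulposus markers to 5043 to 5250, 9374 to 9541 and 2282 to 2467. The smooth muscle sums came mostly from Acta2 and Tagln. Col1a1 carried most of the fibroblast sums (27750, 38060 and 11470 in NC, SEN and BNPMT) and Col2a1 most of the nucleus pulposus sums (4165, 8097 and 1726). Not every marker followed its sum: Des stood at 25.85, 35.5 and 48.4, Thy1 at 461, 232 and 543 and Car3 at 159, 99.3 and 113. The part of other cell types in the changes of the mitochondrial ribosomal protein genes was not tested.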

How the data were processed

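Per the submitters' processing notes, the tools were HISAT2, fastp and HTSeq and the build was mRatBN7.2. Versions and roles are not stated, and the annotation is not given in the sources used here. The authors deposited whole-number counts per gene and FPKM values. Each deposited FPKM equals the count over gene length and library total (largest relative difference 7.77e-16), so gene lengths were derived from both tables. The counts of all 9 libraries entered one edgeR fit (version 4.0.16, R 4.3.3: filterByExpr, TMM, quasi-likelihood F test, 3-group layout), and p-values were adjusted by Benjamini-Hochberg across 14956 genes and called below 0.05. The labels state no test. On simulated counts, 79%, 75% and 84% of 1.5-fold and 95%, 94% and 95% of 2-fold changes were recovered for SEN against NC (12153 genes), BNPMT against SEN (12773) and BNPMT against NC (12153), with 9, 15 and 20 unchanged genes called. These counts were drawn from the fit's own means and spread, with 50 genes changed per size and direction and no length trend. In the real data far more genes were called and libraries had length trends, so these rates need not hold there. No 2 libraries were duplicates (chi-square per degree of freedom 3.51 to 33.5 within groups).

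Named members were, per comparison, up to 6 called rises and 6 called falls of at least 5 CPM without overlap, the 3 highest and 3 lowest by FPKM, the 3 farthest on each side of length-matched genes, and a fixed set by role. The members and lists were chosen with earlier results of these data known. Alternatives were total counts, DESeq2 1.42.0 (size factors or Wald test), other low-count filters, the 2 compared groups alone, a replicate block, a loess length trend (span 0.5) given as offsets, limma 3.58.1 on log2(FPKM + 1) and log2(FPKM + 0.1), and leaving out libraries. Promoter sequences and gene neighbours are from RefSeq (GRCr8).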

Additional observations from a re-analysis of the deposited data

How the results depend on the processing

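Most results kept their direction and their side of the threshold. Over 29 named members, 3 comparisons and 20 alternatives, 1650 of 1740 values did, 49 lost the call, 33 gained one and 8 turned direction. The 8 were Mrpl17 (-0.16), Mrpl22 (-0.13), Mrps7 (-0.10), Mrpl23 (-0.02) and Mrpl58 (-0.01) in BNPMT against NC with the length trend taken out, and Mrpl45 in BNPMT against SEN with total counts (0.27) and with limma on log2(FPKM + 1) (0.26) and log2(FPKM + 0.1) (0.27). The cause was not tested.

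Members higher in SEN numbered 4, but 1 with total counts and with limma on either FPKM scale, and 7 with DESeq2 size factors, with DESeq2's Wald test and with the 2 groups only. Without 1 library they numbered 4 to 7, the 7 without BNPMT 1. Members lower in BNPMT than in SEN numbered 2, and 0 with total counts (edgeR) and on both FPKM scales (limma), with 0 at an unadjusted p below 0.05 in each. Members higher in BNPMT than in NC numbered 65, and 28 with the length trend taken out. Members lower numbered 1, and 4 with the length trend taken out, 2 with the 2 groups only, and 0 with total counts and on both FPKM scales (0 at an unadjusted p below 0.05). Without 1 library the last count was 0 to 2, with 0 without each NC library, BNPMT 2 or BNPMT 3 (0 to 2 at an unadjusted p below 0.05) and 2 without SEN 2. Members lower in SEN numbered 53, and 69 with total counts and on both FPKM scales, 63 with the length trend taken out, 62 without SEN 1 and BNPMT 1 and 60 with no filter. Under the other settings each of these counts stayed within 1.5 times of its reported value. The differences from length-matched genes moved by less than their SD, which is over the libraries of the first-named group alone. The exception was matching on level too, which gave -0.43 for SEN against NC and 0.51 for BNPMT against SEN. Adding the lower-case rows, an alternative chosen after seeing the data, gave 54 lower in SEN, 73 higher in BNPMT against SEN and 68 higher in BNPMT against NC. The length-matched differences without single libraries, without SEN 1 and BNPMT 1 and with the length trend taken out were also added after seeing the data (-0.68 to -0.64, 0.75 to 0.79 and 0.09 to 0.11 over single libraries left out).

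Replicate numbers did not pair the libraries (correlations of same-numbered deviations -0.24 to 0.06), and with the replicate number as a block 53 members were lower and 4 higher in SEN, 70 higher and 2 lower in BNPMT against SEN, and 64 higher and 1 lower in BNPMT against NC. A count of 3 in a library is worth 0.0715 to 0.0961 CPM, so Mrps21l, with 1 read, could not be measured at this depth.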
